A study of Mus musculus with 4 samples.

Results

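The mitotic cell-cycle genes are 36 genes whose products drive entry into mitosis, build the spindle, hold and release the sister chromatids and divide the cell. They were listed by name around Cdc20, a gene that the study itself had singled out from the measured values of these libraries. Beyond that choice no measured value enters the rule. Of the 21851 protein-coding genes of the annotation they make up 36, and of the 82641 open regions found in the study 76 lay in their gene bodies or within 5 kb on either side. Of these 76 regions 42 were promoter regions, within 2 kb of a start site of the gene, and 34 were distal.

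ATAC-seq, in which the Tn5 transposase cuts accessible DNA, was run on keratinocytes of 2 wild-type (WT) and 2 Mapk8-KO mouse samples. Mapk8 encodes the kinase JNK1, which phosphorylates c-Jun, a subunit of the AP-1 transcription factor. The Mapk8-KO mice carried a floxed Mapk8 gene and a K14-Cre transgene, so the deletion was driven in cells that express keratin 14 or descend from them, and the control mice were littermates. All mice were C57BL/6 females of 8 to 12 weeks, and all groups had received a cream with 5% imiquimod (Aldara), an agonist of Toll-like receptor 7 that inflames the skin, on 8 consecutive days, so no untreated skin enters the comparison. The cells were sorted from dissociated skin as EpCam+ CD49f-high cells after staining for CD45, CD31 and CD140a. Whether a sample was 1 mouse or a pool is not given in the sources used here. The p-values below therefore rest on the spread between these samples, counting error included, pooled over regions.

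Mitotic genes are silent in resting cells and are turned on late in the cell cycle, in G2 and mitosis. In resting cells the DREAM complex holds them down. In cycling cells its MuvB core binds B-Myb (Mybl2) and FOXM1 instead and activates them. MuvB reaches these promoters through the cell cycle genes homology region (CHR), and the CCAAT box beside it is bound by NF-Y. In the epidermis the dividing cells lie mainly in the basal layer, which the CD49f gate (integrin alpha 6) selects, and inflamed skin thickens as more of them divide.

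The sequences that the mitotic promoters share were read from the genome, and 7 are shown to let the elements be seen beside the values that follow. Each runs from 130 bases before the start site to 30 bases from it, 5′ to 3′ on the strand of the gene, in GRCm38 (mm10). Capitals mark the CHR (TTTGAA or TTCGAA) and the CCAAT box (CCAAT), on either strand, so that ATTGG is a CCAAT box of the opposite strand. Cdc20 is shown because the gene list is built around it, Ccnb2 and Cdk1 because their elements are repeated, Cdca8 and Kif23 because their regions were among those that differed most in rank or level, Prc1 because it has a single copy of each, and Birc5 because it has none.
Cdc20, chr4:118437323-118437482, minus strand: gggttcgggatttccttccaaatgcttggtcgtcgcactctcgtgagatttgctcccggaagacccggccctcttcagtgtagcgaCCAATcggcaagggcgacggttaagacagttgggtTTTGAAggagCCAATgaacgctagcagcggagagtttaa
Ccnb2, chr9:70421518-70421677, minus strand: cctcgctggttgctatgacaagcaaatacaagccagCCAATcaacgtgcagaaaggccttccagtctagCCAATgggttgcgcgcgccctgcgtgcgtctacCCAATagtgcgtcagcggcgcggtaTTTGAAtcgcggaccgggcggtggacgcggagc
Cdk1, chr10:69352909-69353068, minus strand: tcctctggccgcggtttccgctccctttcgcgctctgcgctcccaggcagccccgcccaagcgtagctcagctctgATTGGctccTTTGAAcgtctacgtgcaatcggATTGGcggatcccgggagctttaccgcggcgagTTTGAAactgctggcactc
Cdca8, chr4:124936888-124937047, minus strand: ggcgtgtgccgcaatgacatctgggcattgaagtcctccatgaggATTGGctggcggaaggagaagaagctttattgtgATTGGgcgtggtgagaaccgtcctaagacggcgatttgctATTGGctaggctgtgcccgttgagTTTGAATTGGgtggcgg
Kif23, chr9:61946745-61946904, minus strand: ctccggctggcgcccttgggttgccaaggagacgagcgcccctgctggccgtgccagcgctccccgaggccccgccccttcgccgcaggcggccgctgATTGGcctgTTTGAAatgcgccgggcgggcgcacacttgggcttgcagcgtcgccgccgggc
Prc1, chr7:80294320-80294479, plus strand: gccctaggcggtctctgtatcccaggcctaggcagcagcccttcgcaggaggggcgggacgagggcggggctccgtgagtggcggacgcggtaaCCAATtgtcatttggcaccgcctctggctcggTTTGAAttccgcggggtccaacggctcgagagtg
Birc5, chr11:117849121-117849280, plus strand: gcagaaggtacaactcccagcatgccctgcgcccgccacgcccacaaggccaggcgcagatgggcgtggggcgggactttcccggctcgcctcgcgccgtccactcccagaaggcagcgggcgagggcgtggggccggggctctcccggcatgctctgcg

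In the window from 250 bases before to 50 after the start site, a CHR was found in 22 of the 36 mitotic promoters (61.1%) and in 17.2% of the 21851 coding promoters. The CCAAT box was found in 29 (80.6%), against 38.6% of all coding promoters, and 2 or more CCAAT boxes in 20 (55.6%), against 12.3%. Every promoter with a CHR also had a CCAAT box, so 22 of 36 had both (61.1%), against 7.60% of all coding promoters. In the promoters with a CHR, the match nearest the start site began within 50 bases of it in 21 of 22, at a median of -1 relative to it. It was counted as reading in the direction of the gene in 17. These include Aurkb, Bub1 and Cdc25b, whose TTCGAA reads the same on either strand and so has no direction. The nearest CCAAT box had its median start at -26.

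Neither element was found in Ccna2, Mad2l1, Kif20a, Birc5, Mybl2, Fzr1 or Nusap1. That says only that these letters are not in this window. The E2F site was searched on either strand as TTGGCGC, then in the form TTCCCGC, also with the letters TTGCCGC and finally as TTCGCGC. It was in 6 of the 36 (16.7%), against 12.1% of all coding promoters. The AP-1 site (TGACTCA or its reverse complement TGAGTCA) was in none of the 36, against 4.45%. Letters of the CHR and CCAAT box can overlap, as at the Cdca8 start site, and they were counted as separate matches.

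Among other cell-cycle lists, a further 50 mitotic genes had a CHR in 54% and a CCAAT box in 62% of their promoters. In 25 S-phase genes, which encode the replication machinery, the shares were 12% for the CHR, 64% for the CCAAT box and 64% for the E2F site. The members were also richer in CpG than the average promoter, with a median observed-to-expected CpG ratio of 0.878 against 0.557 over all coding promoters, and the part of base composition in the motif shares was not tested.

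**Figure D1:**
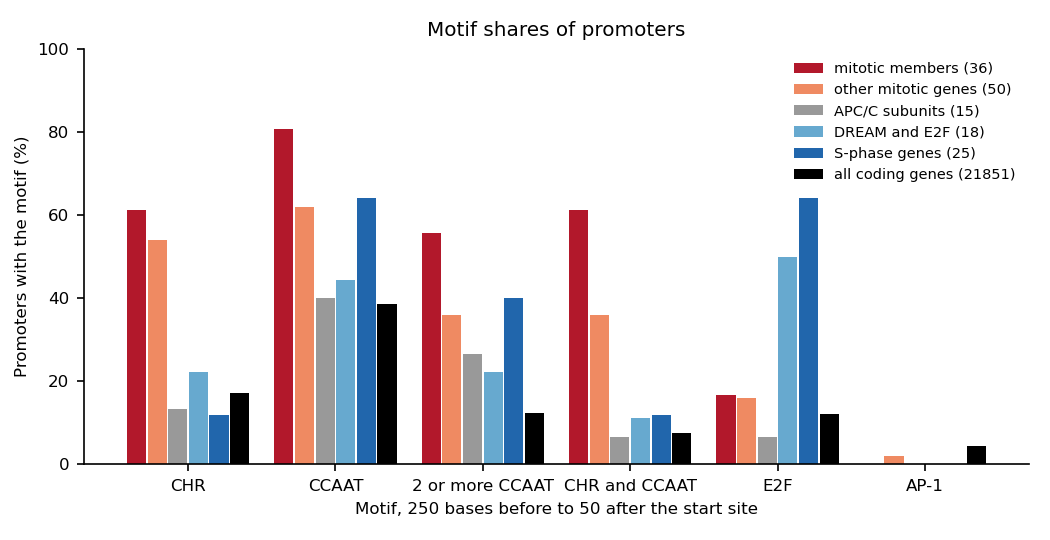
Percentage of promoters (vertical axis) with each motif in the window from 250 bases before to 50 after the start site, for the 36 mitotic genes, 4 other cell-cycle lists and all coding genes, with the number of promoters of each in brackets. The mitotic genes stand highest for the CHR (61.1%) and the CCAAT box (80.6%), and the S-phase genes for the E2F site (64%).

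The 4 libraries differed in depth. For WT the lists held 69927 and 54856 intervals, and for Mapk8-KO 69583 and 49856. Relative to WT 1 the depth, taken from the fragments at common summits, was 0.694 in WT 2, 1.12 in the first Mapk8-KO library and 0.646 in the second, so the libraries numbered 1 were the deeper of each genotype. The number of fragments stacked at a summit (the pileup) was recovered as a whole number from the deposited fold enrichment and p-value, and pileups are given either as such or scaled to a common depth. Promoter regions of the keratinocyte markers were called for 6 to 9 of 9 genes per library, those of immune markers (Ptprc and Spi1 among them) for 0 of 7 in each library, of endothelial markers for 1 or 2 of 3, of fibroblast markers for 1 of 4, and of melanocyte markers for 4 of 5, Tyr being the exception. The summed scaled pileup of the melanocyte markers was 216 and 220 fragments in WT against 237 and 266 in Mapk8-KO, and that of the keratinocyte markers 401 and 267 against 490 and 434. Their part in the results was not tested. The Mapk8 promoter itself was called in all 4 libraries, with scaled pileups of 80.2 and 88.2 fragments in WT and 81.6 and 117 in Mapk8-KO. Which part of the gene was deleted is not given in the sources used here, so this does not check the deletion.

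Each of the 36 genes had an open promoter region, and the region held the start site of the gene in all 36. In all coding genes, 62.8% had a promoter region at all. The main promoter region was called in all 4 libraries for 34 of the 36 (94.4%), against 51.7% of all coding genes. Since fold enrichment of separately called lists is comparable only by rank, each region was placed by its percentile within the regions of its own library. The median percentile of the mitotic promoters was 89.4 and 88.6 in WT and 88.1 and 87.3 in Mapk8-KO. The medians of all coding promoters were 72.7 and 69.1 in WT and 75.9 and 72.0 in Mapk8-KO. Related lists also ranked high. The medians of the other mitotic genes were 82.9 and 81.7 in WT and 86.6 and 84.9 in Mapk8-KO. Those of the S-phase genes were 83.8 and 83.5 in WT and 85.7 and 83.7 in Mapk8-KO. Averaged over the libraries, 28 of the 36 promoters stood at the 75th percentile or above and 4 below the 50th. In these sorted bulk cells a higher share of cells with an open promoter and a more open promoter in each cell cannot be told apart.

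**Figure D2:**
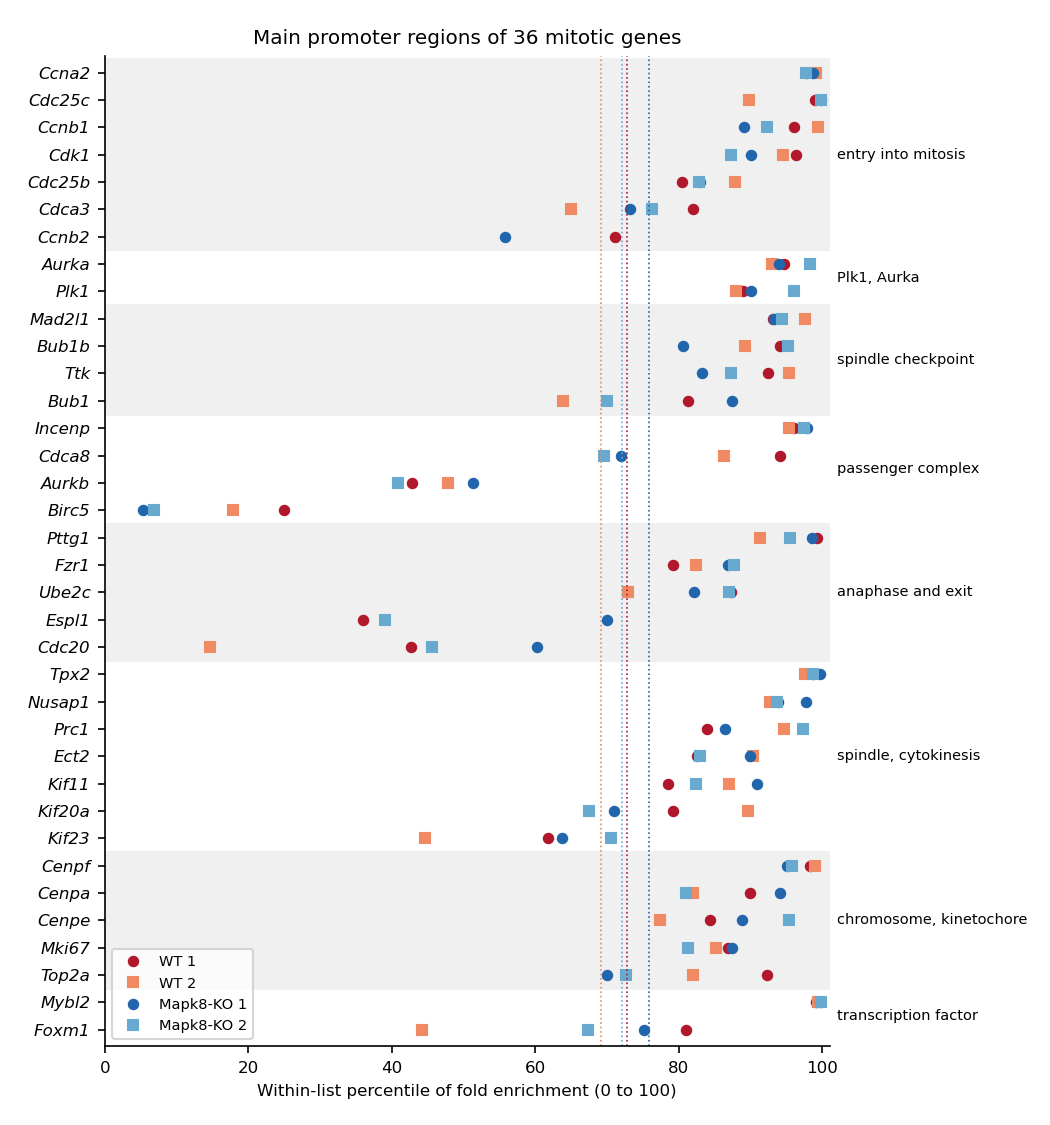
Percentile of fold enrichment within each library's list (horizontal axis, 0 to 100) of the main promoter region of each of the 36 genes, grouped by role, with a point per library in which the region was called and a dotted line at the median of all coding promoters in that library. Most promoters lie to the right of the dotted lines, and Birc5, Cdc20, Aurkb, Espl1, Kif23 and Ccnb2 lie to the left in every library that called them.

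The highest-ranked promoters were those of Mybl2, Tpx2 and Ccna2. Mybl2 encodes B-Myb, the partner of MuvB in S phase and G2. Its promoter held 116 and 88 fragments in the WT libraries and 150 and 110 in the Mapk8-KO libraries, which put it at percentiles 99.2 and 99.4 in WT and 99.7 and 99.8 in Mapk8-KO. Tpx2, which activates Aurora A on the spindle, stood at 98.7 and 97.5 in WT and 99.7 and 98.7 in Mapk8-KO. The promoter of Ccna2, the gene of cyclin A2, stood at 97.8 and 99.2 in WT and 98.7 and 97.8 in Mapk8-KO. All 3 were near the top of every list, and none of the 3 separated the genotypes by the rank gap used below.

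The lowest-ranked were those of Birc5, Cdc20 and Aurkb, and each of these is described with its group. Ccnb2 and Espl1 were the 2 genes whose promoter was not called in all libraries. Ccnb2, a B-type cyclin gene, had 29 fragments in WT 1 and 26 in Mapk8-KO 1 and no call in WT 2 or Mapk8-KO 2, so the call followed the deeper library of each genotype. Espl1 encodes separase, the protease that cuts cohesin at anaphase. Its promoter was not called in WT 2, had 18 fragments in the other WT library, and 32 and 16 in the Mapk8-KO libraries.

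The comparison of WT with Mapk8-KO cells asks how the loss of JNK1 in the epidermis changes open chromatin in inflamed skin. At the mitotic genes no region passed the test. The test was limma with a variance trend on the log2 summit pileup of the 40159 regions called in all 4 libraries, with Benjamini-Hochberg adjustment over all of them and a threshold of 0.05. It called 84 regions (0.209%) higher in WT and 7 (0.0174%) higher in Mapk8-KO, and 0 of the 46 mitotic regions called in all 4 libraries. At an unadjusted p under 0.05 stood 2 of the 46 (4.35%), against 10.4% of all regions. The lowest adjusted p among the members was 0.284. At the Cdc25c promoter the log2 difference was 0.74 without Mapk8-KO 1 and 0.36 without Mapk8-KO 2, against 0.55 with all 4 libraries. Those fits have a single Mapk8-KO library, which is assumed to vary like WT and like other regions. Regions passing in them are therefore not counted. With 2 libraries a genotype an exact two-sided permutation test of a single region cannot go below p = 0.333.

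The median log2 difference, Mapk8-KO minus WT, over the 34 promoters called in all libraries was 0.11, and over 10201 coding promoters it was 0.12. The value was higher in Mapk8-KO at 22 of 34 mitotic promoters (64.7%) and at 70.5% of the coding promoters. In the single libraries the median deviation of the mitotic promoters from their own mean was -0.05 in either WT library, -0.04 in the first Mapk8-KO library and 0.11 in the second, so Mapk8-KO 2 stood apart from the other libraries, at all coding promoters (0.13) as at these. Without that library the median of the mitotic promoters was 0.03 and that of all coding promoters 0.05. When the libraries were centred on coding promoters in place of all regions, the mitotic median was 0.004 and 17 of 34 were higher in Mapk8-KO. With regions centred within classes of GC content, the medians were 0.04 over the mitotic and 0.02 over all coding promoters, and on log2 fold they were 0.05 and 0.06.

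The scaled pileups of WT and Mapk8-KO did not overlap at 18 of the 34 promoters. They were higher in WT at 6 (Cenpf, Cdca8, Ttk, Cdk1, Top2a and Kif20a), an order found at 8.94% of regions at coding promoters and 20.3% of all common regions. They were higher in Mapk8-KO at 12 (Bub1, Tpx2, Mybl2, Ect2, Ccna2, Cenpe, Cenpa, Kif23, Fzr1, Cdc25c, Incenp and Kif11), an order found at 29.8% of regions at coding promoters and 20.3% of all common regions. The standard errors of the 34 differences ran from 0.156 to 0.310, with a median of 0.197. The 95% limma interval reached above a log2 difference of 1 at 0 promoters and below -1 at 1, that of Birc5.

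**Figure D3:**
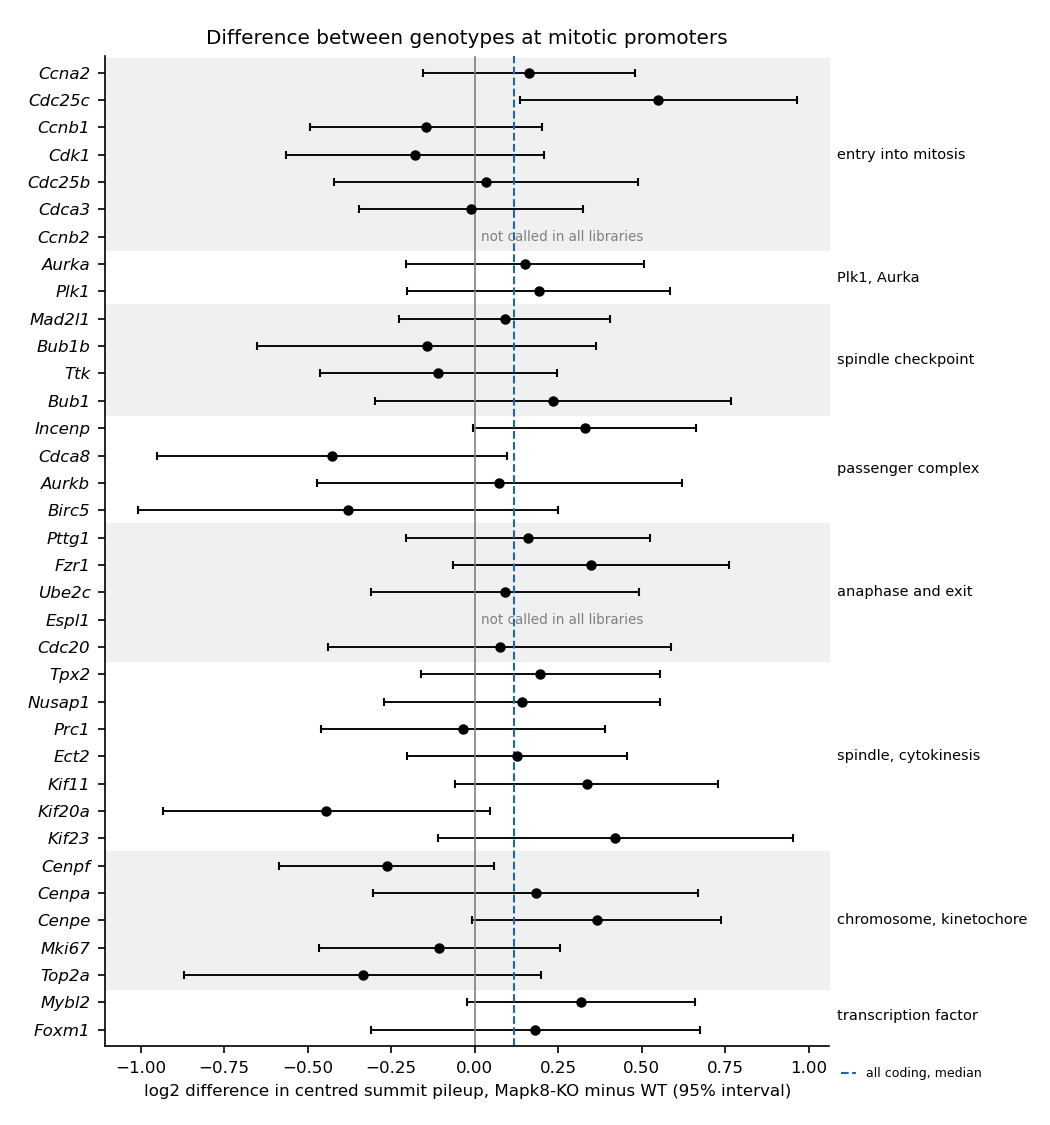
log2 difference in centred summit pileup, Mapk8-KO minus WT, of each main promoter region (point) with its 95% limma interval (line), by role, and the median of all coding promoters as a dashed line. The interval of Cdc25c alone lies off 0, and the points run from -0.44 at Kif20a to 0.55 at Cdc25c.

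By rank, 3 mitotic regions were higher in WT and 0 in Mapk8-KO. A region counts here when the lower percentile of a genotype is at least 10 points above the higher percentile of the other, as held for 2.68% of all common regions on the WT side and 3.77% on the Mapk8-KO side, and for 1.15% and 4.15% of regions at coding promoters. The 3 regions were the promoter and an intron of Cdca8 and the promoter of Birc5. Both genes encode subunits of the chromosomal passenger complex. With percentiles taken among the common regions alone, 2 regions were higher in WT, without the Birc5 promoter, and 1 in Mapk8-KO, the Cdc20 promoter. Leaving out a library, which under this rule can only keep or raise a count, gave 4 to 7 on the WT side and 1 to 11 on the Mapk8-KO side, with the 11 without WT 1. The share of all regions was not computed for these settings, so these counts cannot be set against the shares above.

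The chromosomal passenger complex corrects faulty attachments of kinetochores to microtubules and prepares the cleavage furrow. Its kinase is Aurkb, and Incenp, Birc5 (survivin) and Cdca8 (borealin) place it on the chromosome. Cdca8 differed most in rank among the members. Its promoter region (chr4:124936639-124937425, which also holds the start site of 9930104L06Rik) had 44 and 30 fragments in WT and 33 and 23 in Mapk8-KO, or 36.8 and 36.3 against 24.7 and 29.8 when scaled. The percentiles were 94.1 and 86.3 in WT and 72.0 and 69.5 in Mapk8-KO, a gap of 14.3 points. Both WT libraries thus lay above both Mapk8-KO libraries, and the log2 difference was -0.43 (SE 0.259, limma adjusted p = 0.594).

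The second Cdca8 region lay in an intron, 8635 bases downstream of the start (chr4:124928152-124928438), and held an AP-1 site, shown in capitals on the plus strand with the bases on either side.
Cdca8 intron, chr4:124928260-124928340: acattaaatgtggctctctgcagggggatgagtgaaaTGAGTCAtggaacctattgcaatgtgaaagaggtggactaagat
This region had 27 and 21 fragments in WT and 15 and 13 in Mapk8-KO, or 22.6 and 25.4 against 11.2 and 16.9 scaled. Its percentiles were 66.0 and 60.1 in WT and 17.1 and 22.7 in Mapk8-KO, the widest gap of any mitotic region at 37.3 points. The 15 and 13 fragments of the Mapk8-KO libraries lay close to the lowest pileups called. Among called summits the 5th percentile was 14 fragments for the first of these libraries and 11 for the second. The lowest summits held 10 and 8. The rank gap and the difference at this region thus rest on low counts. The log2 difference was -0.80 (SE 0.306, limma adjusted p = 0.306), the largest of the 46 regions, and the genotypes did not overlap. It ran from -1.09 to -0.51 (without Mapk8-KO 1) when each library was left out in turn and kept its side of the threshold each time.

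The Birc5 promoter had 23 and 17 fragments in WT and 16 and 15 in Mapk8-KO, at percentiles 25.0 and 17.9 against 5.36 and 6.85. The rank gap was 11.0 points, and 5.43 among the common regions. The scaled pileups, 19.2 and 20.5 fragments in WT and 12.0 and 19.5 in Mapk8-KO, overlapped, and the log2 difference was -0.38 (SE 0.310, limma adjusted p = 0.718). It was -0.03 without Mapk8-KO 1 and -0.73 without Mapk8-KO 2. It ranked lowest among the members, with a mean percentile of 13.8.

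Incenp and Aurkb did not follow Cdca8. The scaffold gene Incenp had a promoter at percentiles 96.1 and 95.3 in WT and 97.9 and 97.5 in Mapk8-KO, with a log2 difference of 0.33 (SE 0.165, limma adjusted p = 0.487). The promoter of Aurkb had 30 and 25 fragments in WT and 36 and 24 in Mapk8-KO, at percentiles 42.8 and 47.8 in WT and 51.4 and 40.9 in Mapk8-KO, and its log2 difference was 0.07 (SE 0.271). Its genotypes overlapped on both scales. Of the 4 members of the complex, 2 thus had higher values in WT and 2 in Mapk8-KO, and no difference passed the test.

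Cdc20 binds and activates the anaphase-promoting complex, the ubiquitin ligase that marks securin and cyclin B for destruction, and the spindle checkpoint acts by holding it. Its promoter region (chr4:118437212-118437677) held 47 and 24 fragments in WT and 50 and 26 in Mapk8-KO. Scaled, these were 39.3 and 29.0 in WT and 37.4 and 33.7 in Mapk8-KO, so the Mapk8-KO libraries lay between the WT libraries. The log2 difference was 0.07 (95% interval -0.44 to 0.59, limma adjusted p = 0.955, exact two-sided permutation p = 1). Its sign turned without WT 2 (-0.14), without Mapk8-KO 1 (-0.001) and with the centring on coding promoters (-0.03), and it was 0.41 (limma adjusted p = 0.776) on log2 fold in place of log2 pileup.

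On the rank scale the Cdc20 promoter stood at 42.7 and 14.6 in WT and 60.2 and 45.5 in Mapk8-KO, above both WT libraries in both Mapk8-KO libraries by 2.8 points. When percentiles were taken among the regions called in all libraries alone, the gap was 14.2 points. The promoter as printed above carries a CHR and 2 CCAAT boxes around the start site, and among the members only Birc5 stood lower by mean percentile. The low rank of WT 2 stands beside a pileup of 24 fragments in a library of 0.694 times the depth of WT 1. Mapk8-KO 2, at 0.646 times that depth, had 26 fragments and stood at 45.5. The part of depth in these ranks was not tested.

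Within Cdc20 a second region was called in an intron, 2660 bases downstream of the start (chr4:118434501-118435325). It had 54 and 30 fragments in the WT libraries and 39 in Mapk8-KO 1, and was not called in Mapk8-KO 2. Scaled, these were 45.1 and 36.3 in WT and 29.2 in Mapk8-KO 1, so the called Mapk8-KO library lay below both WT libraries on this scale. By rank it lay between them, at percentile 31.9 against 46.6 and 19.9 in WT. The lowest pileup of any called summit in Mapk8-KO 2 was 8 fragments, and a region without a call can still hold fragments, so no fold is given. The region holds an AP-1 site, and the shallowest library was the one without a call.
Cdc20 intron, chr4:118434575-118434655, plus strand: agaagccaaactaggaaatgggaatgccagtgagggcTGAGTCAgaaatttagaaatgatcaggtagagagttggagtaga

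Downstream of Cdc20, regions 7660 and 9123 bases from its start lay at the neighbouring Elovl1 gene, which encodes a fatty acid elongase. The nearer had no call in WT 1 and 31 fragments in the other WT library, with 33 and 25 in Mapk8-KO, or 37.5 scaled against 24.7 and 32.4. The farther had 39 and 29 in WT and 41 and 31 in Mapk8-KO, with a log2 difference of 0.06 (SE 0.253) and overlapping genotypes.

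**Figure D4:**
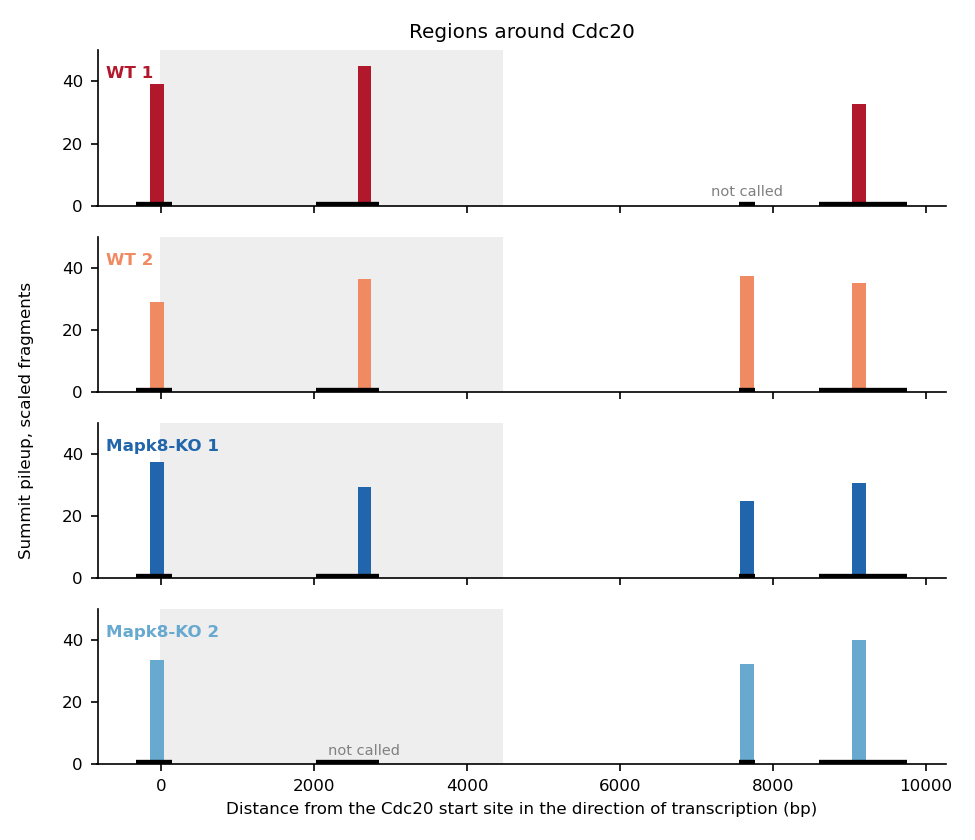
Scaled summit pileup (vertical axis, fragments at a common depth) of the 4 regions around Cdc20 in each library, by distance from its start site in the direction of transcription, with the gene body shaded and the region as a black bar. The promoter bars lie between 29.0 and 39.3 fragments, and the intronic region has no call in Mapk8-KO 2.

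Of the other genes of anaphase and exit, Fzr1, Ube2c and Pttg1 had a log2 difference higher in Mapk8-KO, as 70.5% of the coding promoters did. None passed the test, and Espl1, without a call in WT 2, was not tested. Fzr1 encodes Cdh1, the activator that takes over from Cdc20 late in mitosis. Its scaled pileups were 49.3 and 52.0 in WT and 56.2 and 73.9 in Mapk8-KO, with a log2 difference of 0.35 (limma adjusted p = 0.574). Ube2c, the ubiquitin-conjugating enzyme of the complex, and Pttg1, which encodes securin, differed by 0.09 and 0.16 and overlapped between genotypes. Of 15 genes of the complex's subunits and its enzyme Ube2s, all had a promoter called in all libraries, 0 passed limma (0 also at an unadjusted p under 0.05), and 2 ranked higher in Mapk8-KO, Anapc7 and Cdc27, with gaps of 10.7 and 13.6 points, as 4.15% of regions at coding promoters did.

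Among the genes of entry into mitosis, Cdk1 is the kinase that starts it, cyclins A2, B1 and B2 activate Cdk1, Cdc25b and Cdc25c remove its inhibitory phosphates, and Cdca3 triggers the loss of the inhibitor Wee1. Their median log2 difference was 0.01, from -0.18 at Cdk1 to 0.55 at Cdc25c, and 3 of the 6 called in all libraries were higher in Mapk8-KO. Cdc25c showed the largest positive difference of the 34 promoters. It had 66 and 36 fragments in WT and 84 and 63 in Mapk8-KO, or 55.1 and 43.5 against 62.9 and 81.7 scaled. The genotypes did not overlap, and the log2 difference was 0.55 (95% interval 0.14 to 0.96, limma adjusted p = 0.284), and without Mapk8-KO 2 it was 0.36. Its percentiles were 99.0 and 89.7 in WT and 99.8 and 99.8 in Mapk8-KO, so it was among the most open promoters of both genotypes.

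The Cdk1 promoter had scaled pileups of 66.8 and 67.7 in WT and 59.2 and 59.7 in Mapk8-KO, a log2 difference of -0.18 (SE 0.191, limma adjusted p = 0.803). The replicates of each genotype were within 1 fragment of each other, and the 95% interval of the difference, -0.57 to 0.21, included 0. Ccnb1 had 96.1 and 112 in WT against 88.4 and 99.9 in Mapk8-KO, which overlapped. The differences of Cdc25b (0.03) and Cdca3 (-0.01) were the smallest of the group, and the Cdca3 region, the widest of the mitotic promoters, also lies within 2 kb of the start of Usp5.

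Plk1 and Aurora A (Aurka) ripen the centrosomes and push the cell into mitosis. Their percentiles lay between 88.0 and 98.2 over the libraries. The log2 differences were 0.19 for Plk1 and 0.15 for Aurka (SE 0.195 and 0.176), and the values of the genotypes overlapped at both. The 4 genes of the spindle checkpoint, which delays anaphase until all chromosomes are attached, differed from -0.14 (Bub1b) to 0.23 (Bub1). Ttk, the kinase at the head of the checkpoint, had 85.2 and 88.2 in WT and 77.9 and 83.0 in Mapk8-KO, higher in both WT libraries by a margin within the interval. Mad2l1, whose product binds Cdc20, had 151 and 167 in WT and 166 and 172 in Mapk8-KO, the highest scaled pileups of the checkpoint genes, and overlapped.

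The 7 genes of the spindle and cytokinesis held the members with opposite differences. Kif20a and Kif23 encode kinesins of the central spindle, which the dividing cell needs for cytokinesis. Kif20a had 48 and 43 fragments in WT and 40 and 29 in Mapk8-KO, or 40.1 and 52.0 against 30.0 and 37.6 scaled, and a log2 difference of -0.44 (SE 0.242, limma adjusted p = 0.534), which was -0.26 without WT 2 and -0.28 without Mapk8-KO 1. Kif23 had 33 and 21 in WT and 43 and 30 in Mapk8-KO, or 27.6 and 25.4 against 32.2 and 38.9 scaled, and a difference of 0.42 (SE 0.263, limma adjusted p = 0.608), which was 0.21 on log2 fold and 0.28 with the centring by GC class. Neither pair of genotypes overlapped, and neither difference passed the test.

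The Kif20a region also lies within 2 kb of the start of Brd8. The remaining spindle genes, Kif11 (the kinesin that pushes the poles apart), Ect2 (the exchange factor that activates RhoA at the furrow), Nusap1, Tpx2 and Prc1 (which bundles midzone microtubules), differed from -0.04 at Prc1 to 0.34 at Kif11. Kif11 had 51.0 and 61.6 in WT and 74.1 and 67.4 in Mapk8-KO, with adjusted p = 0.570 in limma. Its percentiles, 78.5 and 87.0 in WT and 90.9 and 82.4 in Mapk8-KO, overlapped.

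Of the chromosome and kinetochore genes, 3 of 5 were higher in WT. Top2a, the topoisomerase that untangles sister DNA, had 35.1 and 33.8 in WT and 24.0 and 31.1 in Mapk8-KO (log2 difference -0.34, limma adjusted p = 0.706), and Cenpf had 146 and 150 against 122 and 125 (-0.26, limma adjusted p = 0.589). Cenpe, the kinesin that carries chromosomes to the metaphase plate, went the other way. It had 88 and 56 fragments in WT and 105 and 81 in Mapk8-KO, or 73.5 and 67.7 against 78.6 and 105 scaled. The log2 difference was 0.37 (SE 0.184, limma adjusted p = 0.487), the third largest among the positive differences of the promoters, and it was 0.16 without Mapk8-KO 2 and 0.57 without Mapk8-KO 1.

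Mki67 encodes the marker of cycling cells Ki-67, which coats mitotic chromosomes. Its promoter had 83.5 and 88.2 in WT and 87.6 and 72.6 in Mapk8-KO, a log2 difference of -0.11 (SE 0.178) with overlapping genotypes. Cenpa, the histone variant of the centromere, differed by 0.18 (SE 0.240). The promoter of Foxm1, whose product activates the mitotic genes late in G2, had 60 and 25 fragments in WT and 59 and 34 in Mapk8-KO, at percentiles 81.0 and 44.1 against 75.2 and 67.3. Its log2 difference was 0.18 (SE 0.243), and that of Mybl2 was 0.32 (SE 0.169, limma adjusted p = 0.519).

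The 34 distal regions belonged to 20 of the genes, and 16 genes had a single region. By the position of the summit, 17 lay in introns, 4 in coding exons, 1 in an untranslated exon, 9 downstream and 3 upstream. At 7 of them a start site of another coding gene lay within 2 kb. They were less open than the promoters, with 12 to 57 fragments against 14 to 221, and 12 of 34 were called in all libraries against 34 of the 42 promoter regions. In the whole atlas 42.7% of the regions outside coding promoters and 71.0% of those at coding promoters were called in all 4.

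The libraries called 70 and 53 of the 76 regions in WT (92.1% and 69.7%) and 68 and 55 in Mapk8-KO (89.5% and 72.4%), a mean of 61.5 in either genotype. Of the whole atlas they called 83.8% and 65.2% in WT and 83.2% and 59.1% in Mapk8-KO. No mitotic region was called in both libraries of a genotype and neither of the other, as 2.17% of the atlas was for WT and 1.65% for Mapk8-KO. With the lists cut to equal length the counts were 1 for WT and 3 for Mapk8-KO, and the atlas shares for cut lists were not computed. Called in both libraries numbered 1 and in neither numbered 2 were 7 of 76 (9.21%), near the 7.91% of the whole atlas with this pattern, and the reverse held for 0 of 76 and 0.15% of the atlas, with the deeper libraries being those numbered 1. Intronic regions of Prc1 and Mki67 and an untranslated exon of Ccnb1 were of this kind, with 18 to 29 fragments in the deeper libraries.

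**Figure D5:**
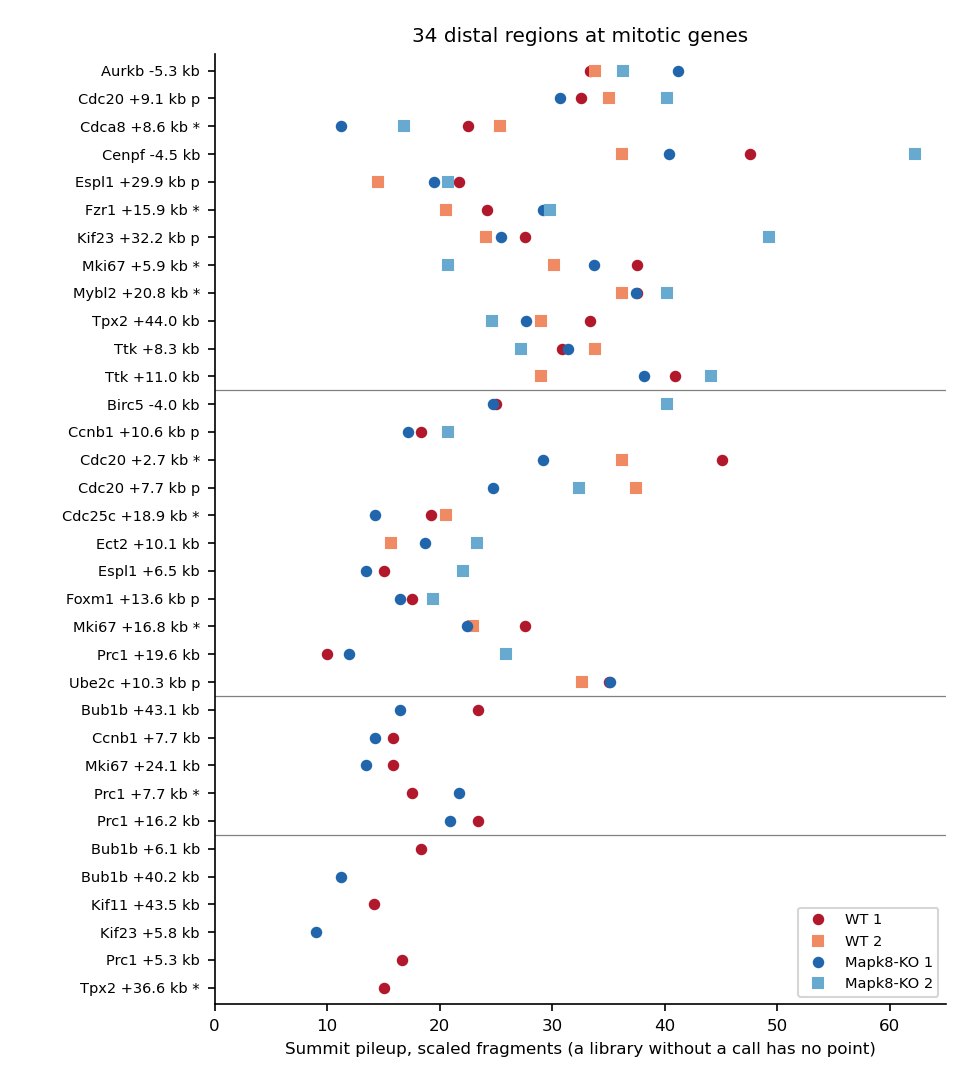
Scaled summit pileup (horizontal axis, fragments at a common depth) of the 34 distal regions in each library that called them, named by gene and distance from its start site, in blocks called in 4, 3, 2 and 1 libraries from top to bottom. A star marks an AP-1 site, and p a region within 2 kb of the start of another coding gene. Cdca8 +8.6 kb is the region with the widest rank gap.

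In the 200 bases around the summit an AP-1 site was found in 9 of the 27 distal regions away from other coding promoters (33.3%), against 27.7% of such regions in the atlas. Cdca8, Mki67, Mybl2 and Fzr1 had a site in a distal region called in all libraries. At Mki67 it lay 5915 bases downstream of the start, in an intron (chr7:135710174-135710919), where 45 and 25 fragments were found in WT and 45 and 16 in Mapk8-KO. Scaled, these were 37.6 and 30.2 against 33.7 and 20.8, which overlapped, and the log2 difference was -0.35 (SE 0.277, limma adjusted p = 0.709).
Mki67 intron, chr7:135710491-135710571, plus strand: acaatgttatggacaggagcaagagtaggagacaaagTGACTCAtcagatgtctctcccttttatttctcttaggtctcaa

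The AP-1 regions of Mybl2 and Fzr1 did not differ in the way of Cdca8. In the Mybl2 intron, 20806 bases downstream of the start, the scaled pileups were 37.6 and 36.3 in WT and 37.4 and 40.2 in Mapk8-KO (log2 difference 0.07, SE 0.239). The Fzr1 region, 15900 bases downstream of the start and beyond the gene, had 24.2 and 20.5 in WT and 29.2 and 29.8 in Mapk8-KO, a difference of 0.40 (SE 0.277, limma adjusted p = 0.649). Over the atlas, distal regions called in all libraries had a median log2 difference of -0.14 with an AP-1 site (8979 regions) and -0.01 without one (18988 regions).

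Absence from Mapk8-KO 2 alone was found at 4 mitotic regions (5.26%), against 9.91% of the atlas, and absence from WT 2 alone at 6 (7.89%), against 4.86%. Those missing from Mapk8-KO 2 were the Cdc20 intron, an Mki67 exon 16797 bases downstream of the start, a region beyond the end of Cdc25c and a region near Tnnc2 beyond Ube2c. The first 3 lie away from other coding promoters, and all 3 hold an AP-1 site, as 40.7% of the 7366 atlas regions with this pattern outside coding promoters did. Of the 3 mitotic regions missing from WT 2 alone that lie away from other coding promoters, 0 held a site, against 13.9% of the atlas regions with that pattern. The Mki67 exon had 33 and 19 fragments in WT and 30 in Mapk8-KO 1.
Mki67 exon, chr7:135699601-135699681, plus strand: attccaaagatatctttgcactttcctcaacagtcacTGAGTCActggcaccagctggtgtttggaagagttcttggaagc
With these 4 regions absent from 1 library each, and that library the shallowest, depth and genotype cannot be told apart at them.

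In the lists of related genes the picture was close to that of the members in counts. The promoter was called in all libraries for 48 of the 50 other mitotic genes, 16 of 18 DREAM and E2F genes and 23 of 25 S-phase genes. The limma test passed 0 in each list, and at an unadjusted p under 0.05 stood 2 (4.17%), 0 and 2 (8.7%), against 6.33% of all coding promoters. Their median log2 differences were 0.06, 0.14 and 0.06. The 4 at an unadjusted p under 0.05, Nuf2 and Cep55 among the mitotic genes and Mcm3 and Pola1 among the S-phase genes, were higher in Mapk8-KO, with log2 differences of 0.40 to 0.51.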

How the data were processed

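Members and lists were chosen with earlier results of these data known. The authors mapped paired reads to mm10 with Bowtie2, removed ambiguous reads and called peaks per library with MACS2 (stated q threshold 0.05, no control, replicates not pooled), and the highest q in the deposited lists was 0.0097. The submitters' notes also name Trimmomatic 0.36 and STAR 2.5.3. Each deposited list gives a score, a fold (ratio) of summit over local background, and −log10 p-values and −log10 q-values per the file headers' standard column order. A Tn5 shift is not given in the sources used here. The series text counts 6 samples, and 4 were analysed here.

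Intervals were merged at 1 bp overlap into an atlas. The summit pileup was solved from fold and p, and was whole within 0.05 fragments for at least 99.996% of the intervals. Genes came from GENCODE vM21 basic, and the main promoter was the region nearest the principal coding start. Named in full were Cdc20, regions past the test, the rank gap or in 1 genotype, the 3 largest differences each way, the 3 highest and 3 lowest percentiles, and members without a call in every library. log2 pileup was centred so that each library's median deviation from the region means was 0 and tested with limma 3.58.1 (R 4.3.3, 38.5 degrees of freedom after pooling over regions). The fit was tested on simulated data. The study's own DESeq2 comparison needs reads per region and was not repeated. Genotypes share only replicate numbers (r = 0.0393 between their replicate differences). The p-values cover counting error and sample spread together, and the lowest called summit held 8 to 10 fragments. Motifs were searched with pysam in GRCm38.p6.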

Additional observations from a re-analysis of the deposited data

How the results depend on the processing

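Of 201 recomputed values, 175 kept their direction and their side of the threshold or stayed within the spread of replicates. No mitotic region passed limma under any alternative with all 4 libraries. All regions called numbered 91, against 309 with a replicate block and 29 after quantile normalization. They numbered 115 with centring by GC class and 151 with that and the replicate block. The number was 0 without the variance trend (3898 at an unadjusted p under 0.05), 0 on log2 fold (2698) and 0 with centring on coding promoters (4364). It was 243 with centring on each library's own median (chosen after seeing the data). A fit with a library left out has a single library in a genotype, so its calls are not counted here. The replicate block changed no call among the mitotic regions in limma. By rank it left 3 higher in WT and gave 2 in Mapk8-KO (Cdc20 promoter and Fzr1 downstream region), and the numbers do not mark pairs. The Cdc20 difference turned to -0.029 with centring on coding promoters and ran from -0.14 to 0.29 with a library left out, and was 0.41 on log2 fold. Regions ranked higher in WT were 6 at a gap of 5 points and 1 at 20. With percentiles among common regions there were 2 in WT and 1 in Mapk8-KO, and with a flank of 10 kb 1 in Mapk8-KO. With a library left out, which by the rule can only keep or raise these counts and those of regions called in 1 genotype, the ranges were 4 to 7 for WT and 1 to 11 for Mapk8-KO. Regions called in 1 genotype alone were 1 (WT) and 3 (Mapk8-KO) in lists of equal length, 1 in Mapk8-KO when the interval had to cover 50% of the region, 2 in WT with a flank of 10 kb, and 0 to 6 in either genotype with a library left out. The CHR share was 41.7% in the 200 bases around the summit, against 6.61% of all coding promoters with a region. Shares over all regions were not computed for the alternative counts by rank and by call. The cause of these changes was not tested. The libraries numbered 2 were the shallower, and the part of depth in their missing calls was not tested.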
